A study of Homo sapiens with 4 samples.

Results

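The NDUF genes encode the nuclear subunits of respiratory complex I and the assembly factors that carry the same gene symbol. They were taken as all protein-coding genes whose symbol begins with NDUF in RefSeq (GRCh38.p14, the chromosomes of hg38), which gave 46 of 20037 protein-coding genes. These were 7 core subunits, 30 accessory subunits, 8 NDUFAF assembly factors and NDUFC2-KCTD14, a readthrough transcript unit that has an end in common with NDUFC2. The genes once named NDUFA4 and NDUFA4L2 are listed there as COXFA4 and COXFA4L2, under complex IV, and were not members.

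The study profiled acetylation of histone H3 at lysine 14 (H3K14ac) by chromatin immunoprecipitation and sequencing in MKN45, a human gastric cancer cell line. One H3K14ac library came from cells with a short hairpin RNA against NIT2 (shNIT2) and 1 from cells with the shNT hairpin, the control. Each also had an input library, whose values were not analysed here. The labels name no clone and no second hairpin for either condition. With 1 library per condition no difference below has a replicate check, and none was tested. Most defining epithelial genes were in both peak lists: of 8 markers, 8 had a gene-end region in the shNIT2 list and 5 in the shNT list, whereas the liver genes ALB and APOA1 had one in neither. KRT8 and KRT18 adjoin and had the same top fold in each list, so they are not independent markers. Mesenchymal markers had one in 2 of 5 cases (VIM and ZEB1) and blood markers in 1 of 4 (CD3E) in the shNIT2 list, and in 0 of 5 and 0 of 4 in the shNT list.

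Complex I takes electrons from NADH, passes them to ubiquinone and pumps protons across the inner mitochondrial membrane. Some of its core subunits carry the flavin and the iron-sulfur clusters or line the quinone site. Its accessory subunits build a shell around the core, and the assembly factors help to join the pieces and then leave. H3K14ac is a mark of open chromatin that is usually found on the nucleosomes around active gene starts.

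Acetylated regions lay at the ends of 23 of the 46 NDUF genes in shNIT2 cells and of 6 in shNT cells. A gene end is here a window of 1 kb on each side of the first or last base of a gene, and a gene counted as marked when any region shared 1 bp or more with it. Over all protein-coding genes, 36.8% were marked in the shNIT2 list and 6.41% in the shNT list, so the shares of NDUF genes, 23 of 46 and 6 of 46 (13.0%), were above those of genes at large in both lists. The order turned at a fold of at least 5 in the shNIT2 list, with 15.2% of NDUF genes and 18.3% of all genes, and at −log10 q of at least 10 in the shNT list, with 0 NDUF genes and 0.26% of all genes. Of the members, 17 were marked in the shNIT2 list alone (31.7% of all genes were), 6 in both lists (5.12% of all genes) and 0 in the shNT list alone (1.29% of all genes). The other 23 had no gene-end region in either list. Anywhere in the span extended by 1 kb, 24 members held a region in the shNIT2 list and 12 in the shNT list, beside 47.0% and 28.5% of all genes.

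The lists differed in background, a measure that moves with sequencing depth, and that bears on the count of 17. Fold enrichment is the authors' ratio of the fragments piled up at the summit to the local background, with 1 added to each, and both terms were solved from it and the p-value. The −log10 q given beside folds is the authors' measure of how far a region stands out, corrected over the list. The lowest background was 2.48 fragments in the shNIT2 list and 0.278 in the shNT list, a ratio of 8.93. The 17 members marked in the shNIT2 list alone had strongest pileups of 11 to 51 fragments with a median of 23. Divided by 8.93, these came to 1.23 to 5.71 fragments, and 11 of the 17 fell under 3 fragments, the lowest pileup of any shNT region. The 6 that stayed at or above 3 were NDUFB1 (5.71 scaled fragments), NDUFA11 (4.03), NDUFAF3 (3.81), NDUFS6 (3.36), NDUFA7 (3.25) and NDUFB4 (3.25). Of the 6 members marked in both lists, 2 also fell under 3 scaled fragments, NDUFA1 and NDUFA12 at 1.79 each. The share of all genes that falls under 3 was not computed. The median pileup of shNIT2 gene-end regions was 23 fragments both at members and over all genes. These scaled counts are therefore not read as a trait of NDUF genes. The shNT list was the longer one, yet only 1237 of its 39876 regions lay at ends of protein-coding genes. In the shNIT2 list 7983 of 28187 regions did. Why the lists differ in this was not tested. Depth and hairpin cannot be told apart with these 2 libraries.

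In fold, the marked members leaned to the lower side of all marked genes in the shNIT2 list and to the higher side in the shNT list. The median fold of the strongest gene-end region was 4.57 over the 23 marked members and 4.97 over all 7373 marked genes of the shNIT2 list, and 7 of the 23 members were above 4.97-fold. In the shNT list the medians were 5.06 over 6 members and 4.58 over 1285 genes, and 4 of the 6 members were above 4.58-fold. Summit backgrounds at member gene ends ran from 2.48 to 10.2 fragments in the shNIT2 list and from 0.278 to 0.49 in the shNT list.

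**Figure D1:**
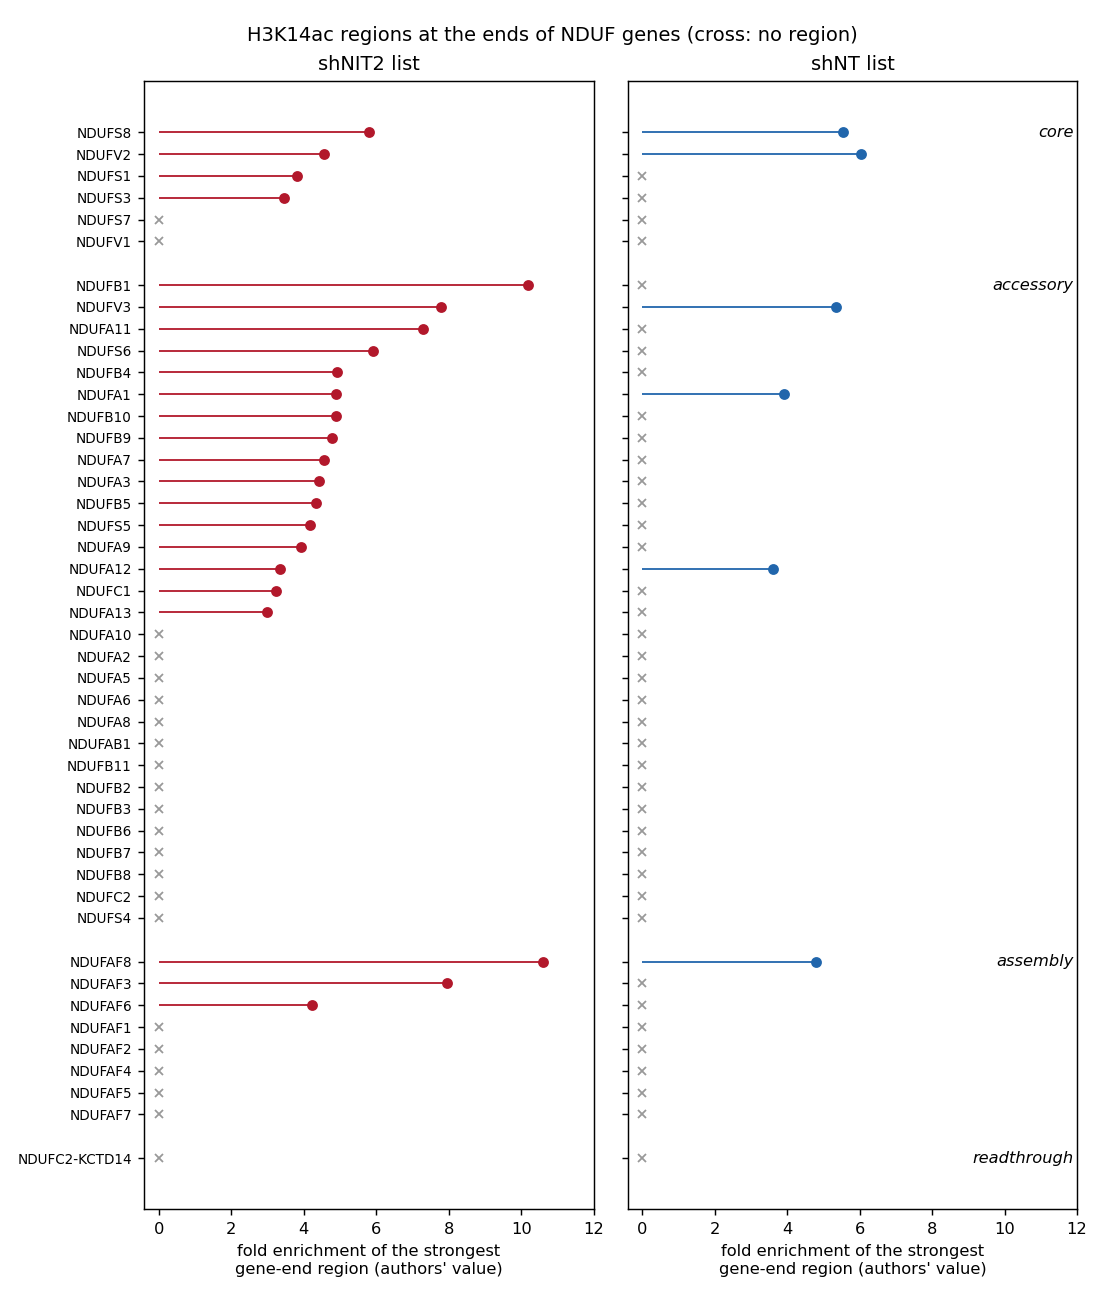
Fold enrichment of the strongest gene-end region (horizontal axis) for NDUF genes, grouped as core, accessory, assembly and readthrough, in the shNIT2 list (left) and the shNT list (right); crosses are genes with no gene-end region. The 23 marked genes of the shNIT2 list reach from 2.98-fold to 10.6-fold and the 6 of the shNT list from 3.61-fold to 6.04-fold; folds are not comparable between the panels.

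By class, core subunits were marked in 4 of 7 cases in the shNIT2 list and 2 of 7 in the shNT list. Accessory subunits were marked in 16 of 30 and 3 of 30, and NDUFAF assembly factors in 3 of 8 and 1 of 8. The classes are small, and a single gene moves the core share by more than the distance between the core share of 57.1% and the accessory share of 53.3%. Arranged by the part of the enzyme they build, the genes of the NADH-oxidizing N module were marked in 6 of 10 cases in the shNIT2 list, the quinone-binding Q module in 3 of 6, the proximal membrane arm in 6 of 9 and the distal membrane arm in 5 of 12. In the shNT list the corresponding counts were 3 of 10, 1 of 6, 1 of 9 and 0 of 12. All protein-coding genes stood at 36.8% in the shNIT2 list and 6.41% in the shNT list. The modules hold too few genes to rank.

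Complex I assembly genes without an NDUF symbol were marked in 5 of 12 cases in the shNIT2 list and in 0 of 12 in the shNT list. The shNIT2 share of 41.7% was near the 36.8% of all genes, and in the shNT list 6.41% of all genes were marked. The 5 marked assembly genes were TMEM186 (5.64-fold), ACAD9 (5.27-fold), TMEM70 (4.79-fold), FOXRED1 (4.72-fold) and TMEM126A (3.52-fold). ACAD9 and TMEM186 belong to the machinery that builds the membrane arm together with NDUFAF1, which had no region in either list. ECSIT, TIMMDC1, TMEM126B, COA1, DMAC1, DMAC2 and NUBPL were unmarked at their ends in both lists.

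Subunits of the other respiratory complexes were marked more often than the NDUF genes in the shNIT2 list, at 31 of 40 genes against 23 of 46, and mitochondrial ribosomal protein genes stood between them at 47 of 77. In the shNT list the counts were 4 of 40 for complexes II to V, 6 of 46 for NDUF genes and 3 of 77 for mitochondrial ribosomal proteins. NDUF genes thus had the lowest share of the 3 groups in the shNIT2 list and the highest in the shNT list. The shNT shares of NDUF genes and complexes II to V were close, at 13.0% and 10.0%. Where gene starts alone were counted, they were 10.0% and 9.38%. With so few genes this order in the shNT list is not firm. The 40 genes of complexes II to V were a chosen list that left out COXFA4 among others, whereas NDUF genes were taken by symbol. The shares of these groups were therefore not drawn alike.

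**Figure D2:**
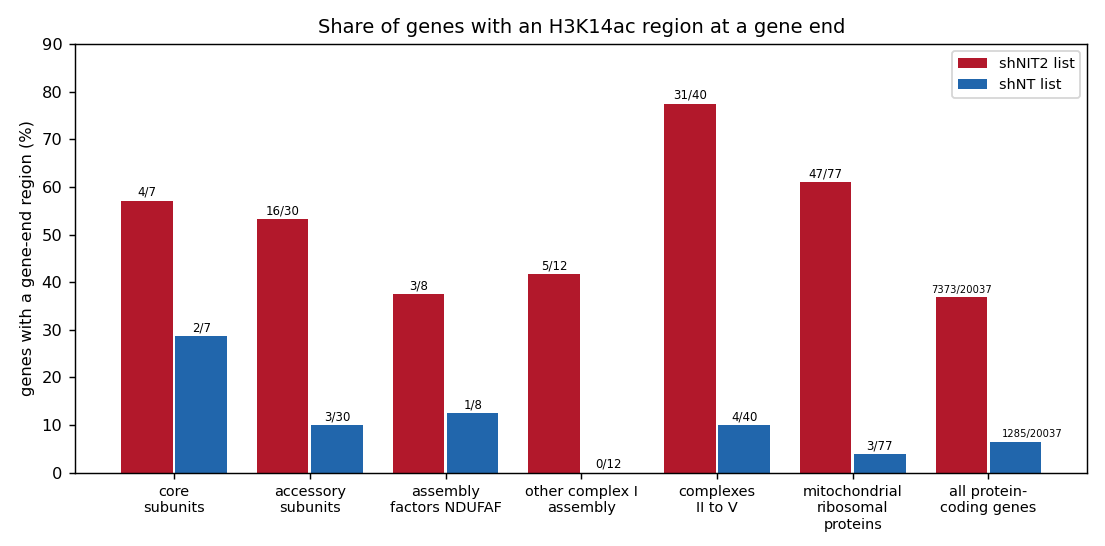
Share of genes with a gene-end region (vertical axis, percent) in the shNIT2 list (left bar of each pair) and the shNT list (right bar), with the counts above each bar. Core and accessory subunits stand at 57.1% and 53.3% in the shNIT2 list, NDUFAF assembly factors at 37.5%, close to the 36.8% of all protein-coding genes, and complexes II to V stand at 77.5%.

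Among the core subunits, NDUFS8 and NDUFV2 were marked in both lists. NDUFS8, an iron-sulfur subunit of the Q module, had a shNIT2 region 2287 to 609 bp upstream of its start (chr11:68028394-68030072, 5.79-fold, −log10 q of 16.0, 38 fragments over a background of 5.74) and a second one 256 to 1393 bp inside the gene (chr11:68030937-68032074, 4.54-fold, −log10 q of 15.0, 47 fragments over 9.57). Its shNT region (chr11:68029841-68030134, 5.55-fold, −log10 q of 4.71, 7 fragments over 0.441) overlapped the upstream one by its near edge. The upstream shNIT2 region overlapped ALDH3B1, an aldehyde dehydrogenase gene. Its summit, where the 5.79-fold was measured, lay 2122 bp upstream of NDUFS8, outside the 1 kb window. The shNT region touched the end window of ALDH3B1. No shNT region lay inside NDUFS8.

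NDUFV2, an iron-sulfur subunit next to the flavin site, showed the same arrangement. Its shNIT2 regions ran 1300 to 250 bp upstream (chr18:9101399-9102449, 4.55-fold, −log10 q of 16.0, 50 fragments over 10.2) and 92 to 868 bp downstream of the start (chr18:9102791-9103567, 4.28-fold, −log10 q of 10.8, 36 fragments over 7.65). The shNT region lay 1430 to 941 bp upstream (chr18:9101269-9101758, 6.04-fold, −log10 q of 5.52, 8 fragments over 0.49) and overlapped the upstream shNIT2 region. Its near edge lay just inside the 1 kb limit. The backgrounds of 10.2 at NDUFV2 and 9.57 at NDUFS8 were the highest of the member gene ends in the shNIT2 list, 4.12 and 3.86 times the lowest background.

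NDUFS1 and NDUFS3 were marked in the shNIT2 list alone. NDUFS1, the largest core subunit and a carrier of several iron-sulfur clusters, had regions 1075 to 653 bp upstream (chr2:206160097-206160519, 3.82-fold, −log10 q of 6.0, 23 fragments over 5.28) and 170 to 809 bp downstream of its start (chr2:206158635-206159274, 2.57-fold, −log10 q of 2.1, 18 fragments over 6.38), the lowest fold of any member gene-end region. The gene EEF1B2, a translation elongation factor subunit, starts 165 bp away on the other strand, and both regions touched its end window. NDUFS3, which helps to form the Q module, had 1 region from 153 to 567 bp downstream (chr11:47579227-47579641, 3.46-fold, −log10 q of 3.61, 16 fragments over 3.91), close to the start of KBTBD4 at 104 bp on the other strand. At both genes the region thus also lay near the start of a neighbour read in the other direction.

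NDUFS7, the carrier of the last iron-sulfur cluster before the quinone, and NDUFV1, which binds NADH and the flavin, had no region in either list.

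The accessory subunits held the strongest subunit region. NDUFB1, a small subunit of the distal membrane arm, had a shNIT2 region of 1653 bp across its start (chr14:92121321-92122973, 10.2-fold, −log10 q of 34.3, 51 fragments over 4.08), stronger than the top region of 90.7% of marked genes. The summit lay 657 bp upstream, inside CPSF2, a pre-mRNA cleavage factor gene that starts 263 bp away on the other strand. A shNT region of 6.59-fold on 8 fragments began 1303 bp beyond NDUFB1, just outside the window, so NDUFB1 was counted in the shNIT2 list alone.

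NDUFV3, NDUFA11 and NDUFS6 came next. NDUFV3, of the N module, had a shNIT2 region 65 to 554 bp downstream of its start (chr21:42893374-42893863, 7.79-fold, −log10 q of 16.3, 28 fragments over 2.72). NDUFA11, which ties the membrane arm together, had one 74 to 736 bp downstream (chr19:5903054-5903716, 7.28-fold, −log10 q of 19, 36 fragments over 4.08). NDUFS6, a zinc-binding subunit of the N module, had one 70 to 897 bp downstream (chr5:1801477-1802304, 5.90-fold, −log10 q of 13.2, 30 fragments over 4.25) and a weaker one upstream that overlapped MRPL36, whose start lies within 27 bp of that of NDUFS6. In each of these genes the strongest region began less than 100 bp inside the gene.

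NDUFB4, of the distal arm, followed with a region 73 to 556 bp downstream of its start (chr3:120596409-120596892, 4.92-fold, −log10 q of 10.4, 29 fragments over 5.1). The other 11 marked accessory genes ran from 4.89-fold at NDUFA1 and NDUFB10 to 2.98-fold at NDUFA13, with NDUFB9, NDUFA7, NDUFA3, NDUFB5, NDUFS5, NDUFA9, NDUFA12 and NDUFC1 between them. NDUFA13, also known as GRIM-19, had its only region upstream, 518 to 210 bp before its start, where TSSK6 begins 677 bp away on the other strand. NDUFC1 had the lowest pileup of the marked members, 11 fragments in a region 688 to 970 bp inside the gene that overlapped NAA15.

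The 3 accessory genes marked in both lists had no overlapping regions. NDUFA1, a membrane-arm subunit on the X chromosome, had a shNIT2 region 135 to 536 bp after its start (chrX:119871967-119872368, 4.89-fold, −log10 q of 6.20, 16 fragments over 2.48) and a shNT region 312 to 38 bp before its far end (chrX:119876350-119876624, 3.91-fold, −log10 q of 2.41, 4 fragments over 0.278). NDUFV3 likewise had its shNT region near the far end (chr21:42912665-42913059, 5.35-fold, −log10 q of 4.50, 6 fragments over 0.31). NDUFA12, an N module subunit, had a shNIT2 region 89 to 667 bp inside the gene (chr12:95003030-95003608, 3.34-fold, −log10 q of 3.38, 16 fragments over 4.08) and a shNT region 696 to 444 bp upstream (chr12:95004141-95004393, 3.61-fold, −log10 q of 1.92, 4 fragments over 0.386). For these 3 genes, membership in both lists does not mean that the same stretch was acetylated. Over all members, 3 of 6 shNT and 3 of 30 shNIT2 gene-end regions overlapped a region of the other list. Over all protein-coding genes, 64.8% of shNT and 11.1% of shNIT2 gene-end regions did.

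The 14 unmarked accessory genes were NDUFA2, NDUFA5, NDUFA6, NDUFA8, NDUFA10, NDUFAB1, NDUFB2, NDUFB3, NDUFB6, NDUFB7, NDUFB8, NDUFB11, NDUFC2 and NDUFS4. They include NDUFAB1, the mitochondrial acyl carrier protein, and NDUFS4, a gene often mutated in Leigh syndrome. The readthrough NDUFC2-KCTD14 was unmarked as well, and since the pair shares the window at the higher-coordinate end, the start of the readthrough, they are not independent. NDUFB11 held 1 interior shNT region (3.88-fold, 4 fragments) and no shNIT2 region. That region lay 1129 to 1459 bp inside the span and touched the end window of RBM10. The start site of the RefSeq promoter window of NDUFB11 lies 789 bp inside the span, within 1 kb of the region. Counted from that start, NDUFB11 would be marked in the shNT list alone. NDUFA8 had a shNT region 1136 bp outside the gene, beyond the window (4.70-fold, 5 fragments).

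Among the assembly factors, NDUFAF8 carried the strongest gene-end region of all members. NDUFAF8 works with NDUFAF5, an enzyme that modifies NDUFS7. Its shNIT2 region covered 50 to 1039 bp after the start of this short gene (chr17:81239361-81240350, 10.6-fold, −log10 q of 43.3, 64 fragments over 5.11). Its shNT region lay within that stretch, 280 to 650 bp after the start (chr17:81239591-81239961, 4.78-fold, −log10 q of 3.5, 6 fragments over 0.464). NDUFAF8 was the only member whose own body held overlapping gene-end regions of both lists. TEPSIN starts 256 bp away on the other strand, and both regions touched its end window.

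Set against its own background without the added 1, the NDUFAF8 summit stood 12.5 times above it in shNIT2 cells (95% interval 9.65 to 16.0) and 12.9 times in shNT cells (4.74 to 28.2). The 2 other pairs of overlapping gene-end regions gave 6.62 (4.69 to 9.09) in shNIT2 cells and 15.9 (6.37 to 32.7) in shNT cells at NDUFS8, and 4.90 (3.64 to 6.46) and 16.3 (7.04 to 32.2) at NDUFV2. These are exact Poisson intervals, which cover counting error only, and each summit was chosen as the highest point of its region. The summits also lay apart, at NDUFS8 2122 bp upstream in shNIT2 cells and 721 bp upstream in shNT cells, and at NDUFV2 508 bp upstream in shNIT2 cells and 1231 bp upstream in shNT cells. At NDUFAF8 the ratios were within each other's interval. At NDUFV2 the shNT ratio was the higher one, with intervals that did not meet. No shNT region had fewer than 3 fragments, so over the shNT background of 0.49 a ratio as low as 4.90 could not be called. The gap at NDUFV2 therefore does not show in which cells the mark was higher. The overlapping interior pair in NDUFAF6, described further on, had the higher ratio in shNIT2 cells, 29.7 (24.0 to 36.6), against 13.4 (3.66 to 34.2) in shNT cells, with intervals that met.

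NDUFAF3, which acts with NDUFAF4 on the Q module, had a shNIT2 region 29 to 962 bp after its start (chr3:49020481-49021414, 7.95-fold, −log10 q of 19.6, 34 fragments over 3.40) and a second one from 1295 to 2054 bp (chr3:49021747-49022506, 5.43-fold, −log10 q of 9.20, 22 fragments over 3.23). Both touched the end window of DALRD3. NDUFAF6 was marked by 1 shNIT2 region 760 bp outside its lower-coordinate end (chr8:94894740-94895039, 4.22-fold, −log10 q of 5.82, 19 fragments over 3.74), which lay in the cyclin gene CCNE2. NDUFAF1, NDUFAF2, NDUFAF4, NDUFAF5 and NDUFAF7 had no gene-end region in either list. NDUFAF4 thus stood unmarked while its partner NDUFAF3 was marked, and NDUFAF5 stood unmarked while its partner NDUFAF8 was marked.

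At gene starts the acetylated stretches flanked the start site rather than covering it. The strand was known for 40 of the 46 members, which matched an entry of the RefSeq promoter table. Among the others were NDUFS5, NDUFB5, NDUFB9, NDUFAF6 and NDUFC2. Of the 40, 19 had a shNIT2 region within 1 kb of the start and 2 within 1 kb of the far end. The shares over all genes with a known strand were 36.7% and 3.87%. The start base itself lay in a region in 1 of the 19, NDUFB1. In 17 of the 19 no region covered the start and one began downstream of it, at a median of 92 bp (range 29 to 688) and ending at a median of 736 bp, and in 16 of these it began within 300 bp. Upstream regions accompanied or replaced it in 7 of the 19.

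Genes at large had a similar layout in the shNIT2 list. Of 5807 marked starts among 15843 genes with a known strand, 15.3% were covered at the start base and 72.3% had a region beginning downstream, at a median of 139 bp. The highest coverage over members was 42.5% of 40 genes, 300 bp downstream, and 2.50% at the start base. Over all genes it was 26.0% at 400 bp and 5.62% at the start base. In the shNT list 4 of the 40 members had a region within 1 kb of the start, and coverage over members, read every 50 bp, was at most 5.00% within 1 kb.

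**Figure D3:**
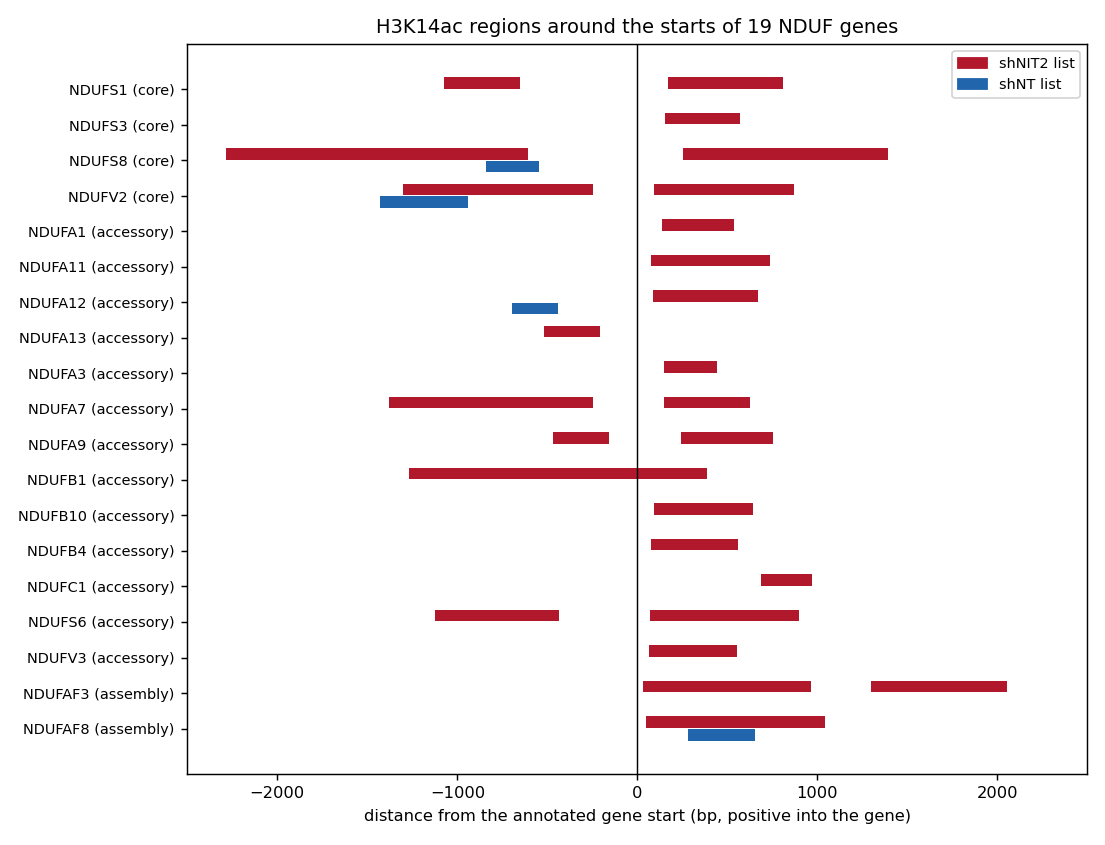
Regions around the starts of the 19 NDUF genes with a shNIT2 region at the start, by distance from the annotated start (bp, positive into the gene). In each row shNIT2 regions stand above shNT regions, and only regions that touch the extended span are shown. Regions farther into a gene, such as the shNT regions of NDUFA1 and NDUFV3 near the far ends, are not drawn. NDUFB1 is the 1 gene whose region crosses the start; NDUFAF8, NDUFS8 and NDUFV2 are the 3 where regions of both lists overlap.

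**Figure D4:**
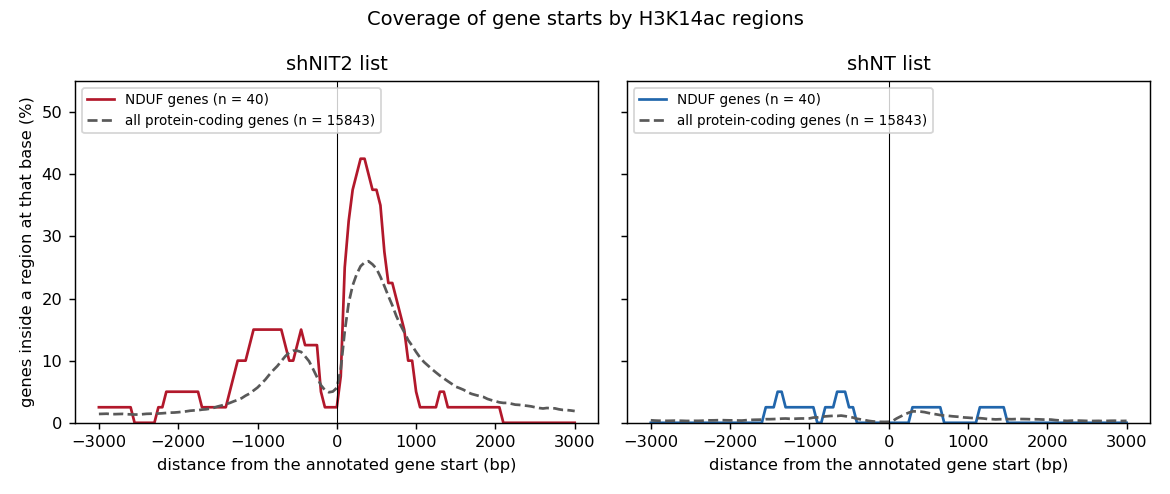
Percent of genes (vertical axis) whose base at each distance from the start (horizontal axis, bp) lies in a region, for the 40 NDUF genes with a known strand (solid) and 15843 protein-coding genes (dashed), in the shNIT2 list (left) and the shNT list (right). The shNIT2 curve of NDUF genes drops to 2.50% at the start base and reaches 42.5% 300 bp downstream.

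The start windows below, from 250 bp before to 50 bp into each gene, are those of the members with a start region in both lists and of the strongest core, accessory and assembly genes. In all but NDUFB1, whose window lies wholly inside its shNIT2 region, the window falls almost entirely outside the regions of both lists. Sequences are RefSeq's for GRCh38.p14, on the strand of the gene, with capitals for the bases from the start site on. The shNIT2 region of NDUFAF8 began at the first base after its window, and at NDUFV2 the upstream region ended at the first base of the window.
NDUFAF8 (chr17:81239061-81239360, plus strand): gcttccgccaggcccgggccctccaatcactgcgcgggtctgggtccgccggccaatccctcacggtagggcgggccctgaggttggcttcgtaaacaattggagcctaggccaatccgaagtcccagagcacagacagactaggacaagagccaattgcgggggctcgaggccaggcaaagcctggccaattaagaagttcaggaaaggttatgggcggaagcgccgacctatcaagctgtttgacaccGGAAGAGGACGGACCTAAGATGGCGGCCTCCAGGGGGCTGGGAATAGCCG
NDUFS8 (chr11:68030431-68030730, plus strand): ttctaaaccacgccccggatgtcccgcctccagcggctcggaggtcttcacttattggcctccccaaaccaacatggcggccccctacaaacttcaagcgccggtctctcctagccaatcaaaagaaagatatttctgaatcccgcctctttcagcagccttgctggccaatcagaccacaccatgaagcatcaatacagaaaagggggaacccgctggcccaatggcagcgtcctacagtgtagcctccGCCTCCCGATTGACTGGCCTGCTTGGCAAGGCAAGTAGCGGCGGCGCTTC
NDUFV2 (chr18:9102449-9102748, plus strand): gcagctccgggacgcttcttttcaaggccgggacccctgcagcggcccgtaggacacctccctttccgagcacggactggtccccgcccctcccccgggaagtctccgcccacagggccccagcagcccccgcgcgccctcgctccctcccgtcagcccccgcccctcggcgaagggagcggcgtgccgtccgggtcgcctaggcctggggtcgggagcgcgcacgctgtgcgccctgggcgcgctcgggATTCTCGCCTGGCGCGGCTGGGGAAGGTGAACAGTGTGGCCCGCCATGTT
NDUFA12 (chr12:95003648-95003947, minus strand): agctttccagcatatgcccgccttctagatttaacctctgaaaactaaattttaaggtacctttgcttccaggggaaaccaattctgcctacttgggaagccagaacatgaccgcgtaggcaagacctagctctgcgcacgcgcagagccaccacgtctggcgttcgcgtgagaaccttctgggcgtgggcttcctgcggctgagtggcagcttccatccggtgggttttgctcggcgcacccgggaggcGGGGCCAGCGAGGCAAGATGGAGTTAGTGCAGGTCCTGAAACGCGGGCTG
NDUFB1 (chr14:92121657-92121956, minus strand): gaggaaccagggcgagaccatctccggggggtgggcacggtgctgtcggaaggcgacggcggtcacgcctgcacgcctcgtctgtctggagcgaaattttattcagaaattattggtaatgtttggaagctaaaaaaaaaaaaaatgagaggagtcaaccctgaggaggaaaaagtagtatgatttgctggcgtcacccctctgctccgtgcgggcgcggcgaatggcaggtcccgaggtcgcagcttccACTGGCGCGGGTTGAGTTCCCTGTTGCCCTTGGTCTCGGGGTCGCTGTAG

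Some start windows of NDUF genes held short motifs known from nuclear genes of respiration. The 9 letters AAGATGGCG, a form of the YY1 motif, occurred on either strand in 6 of 40 member windows (15.0%) and in 2.69% of 15842 windows of all protein-coding genes. The 9 letters GCGCATGCG, the core of the motif of nuclear respiratory factor 1 (NRF1), occurred in 5 of 40 (12.5%) and in 2.76% of all windows. The ETS motif CCGGAAGT occurred in 2 of 40 (5.00%) and in 6.15% of all. A full palindrome, GCGCATGCGC, matches the NRF1 core on both strands and was counted as 1 window, and the end of the YY1 letters can run into the start of the NRF1 core. NDUFS7 was the only member with more than 1 of the motifs, and its sites lay apart. These counts describe letters, not binding.

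The YY1 letters began 10 to 25 bp after the start in the 6 members, and 295 of the 426 windows with them among all genes (69.2%) also had them at or after the start. The sites are shown with 8 bases on each side and the motif in capitals, first the members marked in the shNIT2 list.
NDUFA7: gcggacggAAGATGGCGtccgccac
NDUFA9: tgtgggaaAAGATGGCGgctgccgc
NDUFAF8: acggacctAAGATGGCGgcctccag
NDUFA6: gctttggcAAGATGGCGgggagcgg
NDUFS4: cctgcagcAAGATGGCGgcggtgtc
NDUFS7: ccgaggccAAGATGGCGgtgctgtc

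NDUFA7, NDUFA9 and NDUFAF8 were marked, and NDUFA6, NDUFS4 and NDUFS7 were not, which made 3 of 19 marked and 3 of 21 unmarked members. Over all genes the YY1 letters were in 4.55% of marked and 1.54% of unmarked windows, and the NRF1 core in 3.85% and 2.09%. The NRF1 core lay before or across the start, in NDUFB4 and NDUFS6 among marked members and in NDUFA8, NDUFAF5 and NDUFS7 among unmarked ones.
NDUFB4: agcacttcGCGCATGCGCatatcacc
NDUFS6: gaagccgtGCGCATGCGttagcgct
NDUFA8: tgccggatGCGCATGCGCaggcgccg
NDUFAF5: ccgcgctgGCGCATGCGCacaaaaag
NDUFS7: ccggtttcCGCATGCGCtccgagcc

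Marked members had slightly higher medians of GC and CpG content than unmarked ones. The median GC content of the window was 61.7% in 19 marked and 59.0% in 21 unmarked members, and the ratio of observed to expected CpG was 0.887 and 0.826. Over all genes these medians were 66.3% and 0.859 in marked genes, and 60.0% and 0.644 in unmarked ones.

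NDUF genes were crowded by neighbours. Another protein-coding gene had an end within 1 kb of an end of 29 of the 46 members (63.0%), beside 28.5% of all genes, 54.5% of mitochondrial ribosomal protein genes and 40.0% of complex II to V genes. Of the 23 members marked in the shNIT2 list, 15 (65.2%) had a region that also touched the end window of another gene, beside 31.0% of all marked genes. Such a neighbour stood within 1 kb of 16 of the 23 marked and 13 of the 23 unmarked members. A region counted for NDUFA7 was thereby also counted for the ribosomal protein gene RPS28, and others for TATDN1 next to NDUFB9, MRPL47 next to NDUFB5, WDR4 next to NDUFV3 and RNF113A next to NDUFA1. Which gene such a region belongs to was not tested.

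Inside the genes, away from the ends of their spans, 3 members held a shNIT2 region and 6 a shNT region, against 21.6% and 24.0% of all genes. The members are short, with a median span of 12598 bp beside 24115 bp over all genes. The 10 interior shNT regions rested on 3 to 7 fragments. They lay in NDUFAF2 and NDUFAF6 (3 each) and in NDUFAF7, NDUFB5, NDUFB11 and NDUFC1 (1 each). The strongest was in NDUFAF2, a stand-in for NDUFA12 during assembly, at chr5:61108074-61108409 (6.26-fold, −log10 q of 6.08, 7 fragments over 0.278), and NDUFC1 had one at chr4:139299032-139299284 (5.48-fold, −log10 q of 4.77, 6 fragments over 0.278). Neither overlapped a shNIT2 region.

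Of the interior shNIT2 regions, 8 lay in NDUFAF6, an assembly factor gene with a span of 222698 bp, and 1 in NDUFC1 (chr4:139295158-139295717, 5.17-fold, −log10 q of 7.01, 17 fragments over 2.48). The strongest in NDUFAF6 was at chr8:94949575-94950537 (22.6-fold, −log10 q of 94.2, 91 fragments over 3.06) and overlapped a shNT region (chr8:94949731-94949980, 3.85-fold, −log10 q of 2.36, 4 fragments over 0.298). It lay within 1 kb of the higher-coordinate end of TP53INP1, a p53-induced gene that sits inside the NDUFAF6 span. So did the neighbouring region (chr8:94948106-94949276, 7.12-fold, −log10 q of 15.5, 29 fragments over 3.22). The strand table used here had none for TP53INP1, so this end may be its start or its far end. Farther into the span were regions at chr8:95098594-95100486 (9.70-fold, −log10 q of 29.5, 45 fragments over 3.74) and chr8:95100982-95102488 (5.56-fold, −log10 q of 13.1, 32 fragments over 4.93), with no other protein-coding gene there. The remaining 4 had 3.77-fold to 4.65-fold. NDUFAF6 was thus the member with the most acetylated regions in shNIT2 cells, and its strongest one touched the end window of another gene.

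**Figure D5:**
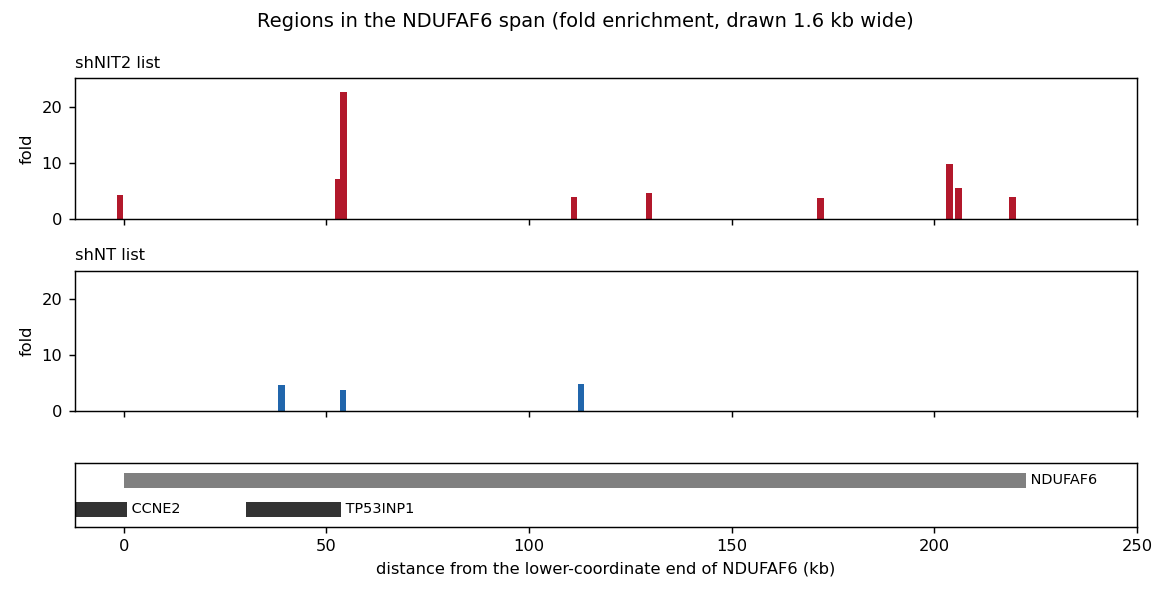
Fold enrichment (vertical axis) of each region in the NDUFAF6 span by distance from its lower-coordinate end (kb), in the shNIT2 list (top) and the shNT list (middle), with protein-coding genes below. Bars have a fixed width. The region of 22.6-fold stands at the higher-coordinate end of TP53INP1, where the 1 overlapping shNT region of 3.85-fold also lies.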

How the data were processed

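H3K14ac peak lists of 2 libraries, shNIT2 and shNT, were used. Per the submitters' processing notes, the build was hg38 and the tools included MACS2 2.1.1, ChIPseeker, Bowtie2 2.2.6, Trimmomatic 0.35, FastQC and cutadapt 1.9.1, with no settings given. Use of the inputs and treatment of duplicates are not given in the sources used here. The deposited lists hold the authors' score, −log10 p-value, −log10 q-value and fold enrichment of each region, called in 1 library each, where the fold is a ratio of summit pileup to background with 1 added to both. The shNIT2 list held 28187 regions (median width 573 bp) and the shNT list 39876 (366 bp), with −log10 q of 1.30 or more in both.

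Genes came from a RefSeq table of GRCh38.p14, and strands from RefSeq promoter windows for 15843 genes. Coordinates are 1-based. Pileup and background were solved from fold and −log10 p by the Poisson upper tail, within 0.1% for 99.96% of regions in each list, after the solver and the gene marking were tested on simulated data. Total reads are unknown. Regions were assigned to gene ends by an overlap of at least 1 bp with windows of 1 kb, and the rest of the extended span was the interior. Alternatives changed the window, the q or fold threshold, the number of regions, the overlap rule and the gene end used. Python 3.11.15, numpy 2.4.6, pandas 2.3.3 and scipy 1.17.1 were used. Members, classes and lists were chosen with earlier results of these data known. Full values were given for every member marked in the shNT list, all marked core and assembly genes, the 5 strongest accessory genes and interior regions of at least 5-fold. Other values named in the text were chosen after they were seen. 1 member is counted but not reported individually here.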

Additional observations from a re-analysis of the deposited data

How the results depend on the processing

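Of 80 values recomputed under alternative settings, 60 stayed within 1.5 times the value given above and 20 moved further. At −log10 q of at least 10, the shNIT2 list marked 9 NDUF genes (9 in that list alone, 2 core, 5 accessory) and the shNT list 0, with 0 in both. At −log10 q of at least 5, the shNT list marked 1, which was marked in both, and 1 member held an interior shNT region. At a fold of at least 5, the shNIT2 list marked 7 (5 in that list alone, 1 core, 4 accessory) and the shNT list 3, with 2 in both and 1 in the shNT list alone. Windows of 3 kb gave 10 in the shNT list, 2 of them in that list alone. Where a region also had to overlap the gene itself, the shNT list marked 3, and both lists marked 3. The members' share in the shNIT2 list was above that of all genes under every setting but 1: at a fold of at least 5 it was 15.2%, beside 18.3% of all genes. In the shNT list it was above under every setting but −log10 q of at least 10, where 0 members and 0.26% of all genes were marked. The same q or fold is not equally strict at unequal depth.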
